A study of Homo sapiens with 9 samples.

Results

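The genes described here build the caveola, and were chosen by name as its coat and accessory genes: the caveolins CAV1 and CAV2, the cavins CAVIN1, CAVIN2 and CAVIN3, and the neck proteins EHD2 and PACSIN2. All 7 were among the 60664 genes listed in the count files, and all 7 were among the 18264 genes that passed the filter on low counts and were tested. RNA was sequenced from MDA-MB-231, a human triple-negative breast cancer line, in 3 groups of 3 samples collected on day 6 of culture. Scramble control (SC) cells, which carry a lentiviral pLKO.1 vector with a scrambled hairpin, were kept either at 0.77 cP, the viscosity of plain medium, or at 8 cP. Cells with a stable hairpin against TRPV4 (shTRPV4), a calcium-permeable channel, in the same vector were kept at 8 cP. Every group thus carries a hairpin vector, and the medium was thickened with methylcellulose, so viscosity and methylcellulose cannot be told apart. Knockdown of TRPV4 and other effects of its hairpin cannot be told apart either. No shTRPV4 cells at 0.77 cP are among the samples, so whether the hairpin alters the effect of viscosity cannot be tested. Where shTRPV4 cells at 8 cP are compared with SC cells at 0.77 cP, hairpin and viscosity both differ.

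Caveolae are small flask-shaped pits of the plasma membrane. Caveolins insert into the inner leaflet and oligomerize, cavins polymerize into a coat around them, and EHD2 and PACSIN2 act at the neck. The pits flatten when membrane tension rises, releasing cavins into the cytosol, and are therefore known as buffers of membrane tension. They are abundant in endothelial, fat and muscle cells and in mesenchymal cells, including many invasive breast cancer lines. The study asked how cells sense a viscous medium that raises membrane tension, and the comparisons below ask how the RNA of the caveola genes differed between its groups.

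The start regions of 3 members are shown first, CAVIN2 and EHD2 because they were lower in shTRPV4 cells in at least 1 comparison and CAV1 because it encodes the principal caveolin. Each is the RefSeq window (GRCh38.p14) from 250 bases before to 50 bases after a start site, written 5′ to 3′ on the strand of the gene. Capitals mark matches, on either strand, to any of 4 motifs: GGAATG (TEAD), TGAGTCA (AP-1), GTAAACA (FOXO) and GGGCGG (the Sp1 GC box). None of the matches shown overlapped another. The CAVIN2 window is chr2:191847039-191847338 on the minus strand, the EHD2 window chr19:47713172-47713471 and the CAV1 window chr7:116524759-116525058, both on the plus strand.
CAVIN2: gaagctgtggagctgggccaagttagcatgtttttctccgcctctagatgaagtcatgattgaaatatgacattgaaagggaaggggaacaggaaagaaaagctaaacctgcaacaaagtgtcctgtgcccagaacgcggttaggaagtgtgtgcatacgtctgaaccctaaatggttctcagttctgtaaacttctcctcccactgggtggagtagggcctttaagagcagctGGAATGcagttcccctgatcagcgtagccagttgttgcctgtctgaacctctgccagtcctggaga
EHD2: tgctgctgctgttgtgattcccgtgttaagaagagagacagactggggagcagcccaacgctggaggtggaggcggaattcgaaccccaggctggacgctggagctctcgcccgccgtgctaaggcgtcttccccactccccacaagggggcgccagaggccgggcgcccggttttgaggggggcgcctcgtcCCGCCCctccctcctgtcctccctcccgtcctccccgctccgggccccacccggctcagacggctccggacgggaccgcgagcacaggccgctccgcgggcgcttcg
CAV1: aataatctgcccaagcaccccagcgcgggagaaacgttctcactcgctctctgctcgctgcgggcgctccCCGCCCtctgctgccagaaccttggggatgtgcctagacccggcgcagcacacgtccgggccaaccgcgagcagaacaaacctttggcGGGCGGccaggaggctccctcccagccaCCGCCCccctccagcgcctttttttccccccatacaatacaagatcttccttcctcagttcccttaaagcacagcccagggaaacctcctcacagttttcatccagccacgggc

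The CAVIN2 window held 1 TEAD match, beginning at position -16 from the start site, and none of the other motifs. The EHD2 window held 1 GC box and the CAV1 window held 3. PACSIN2, not shown and passing the test in no comparison, also held the TEAD letters. They began at -213 in 1 window and at -92, -67 and -49 in windows that overlap each other. Of all 35116 RefSeq windows of this length, 14.0% held the TEAD letters, 45.0% the GC box, 4.95% the AP-1 letters and 3.42% the FOXO letters. No AP-1 or FOXO match fell in any window of the members. RefSeq windows were matched for 5 members, not for CAVIN1 and CAVIN3, and CAV1, CAV2 and PACSIN2 had several. A match is a run of letters, and binding was not measured.

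All the genes lie at single loci, given here as in GENCODE 44 on GRCh38. CAV1 (ENSG00000105974) spans chr7:116524994-116561179 on the plus strand, and CAV2 (ENSG00000105971) spans chr7:116287380-116508541 on the same strand. CAVIN1 (ENSG00000177469) spans chr17:42402449-42423256, CAVIN2 (ENSG00000168497) chr2:191834310-191847088 and CAVIN3 (ENSG00000170955) chr11:6318946-6320532, all on the minus strand. EHD2 (ENSG00000024422) spans chr19:47713422-47743134 on the plus strand and PACSIN2 (ENSG00000100266) chr22:42835412-43015149 on the minus strand. In the exons, CAVIN2 shares 238 bases with the antisense gene CAVIN2-AS1, and CAVIN3 shares 571 of 1557 bases with the antisense lncRNA gene ENSG00000282556. Those antisense genes held at most 19 and 9 reads in any sample, against 5189 or more for CAVIN2 and 6119 or more for CAVIN3. PACSIN2 shares 155 bases with ARFGAP3 on its own strand, and the level of ARFGAP3 in CPM, the count relative to the scaled library total, was 38.6 to 40.7 in the group means. Whether the counting used strand is not given in the sources used here.

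Sample totals ranged from 64571681 to 103518036 reads on genes. TRPV4 had 40, 28 and 54 reads in SC 0.77 cP samples, 64, 45 and 24 in those at 8 cP, and 7, 1 and 13 in shTRPV4 cells. It was lower in shTRPV4 than in SC 8 cP samples by a log2 fold change of -2.51 ± 0.49 (SE, adjusted p = 0.00219, edgeR quasi-likelihood test). The mesenchymal markers VIM, CD44, FN1, SNAI2 and AXL were all present, and ESR1, PGR, CDH1 and KRT5 were at or below 0.133 CPM in every sample, as in a triple-negative mesenchymal line, whereas ERBB2 (89.6 to 96.8 CPM) and EPCAM (16.9 to 19.4 CPM) were detected. Among markers of the cells best known for caveolae, endothelial CDH5 was at 0.0104 CPM or less in all 9 samples, but PECAM1 was at 1.98 to 6.22 CPM. Endothelial TEK, TIE1 and VWF reached 0.5445, 0.46 and 0.186 CPM. The adipocyte marker ADIPOQ was at 0 in all 9 samples, and PLIN1 and FABP4 reached 0.244 and 0.0207 CPM.

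The caveola genes were strongly expressed in every group. On the scale of CPM per kilobase of exon, averaged over the 9 samples, CAVIN1 was at 335 and CAV1 at 294, ranks 81 and 101 of 18227 genes. The others followed with CAVIN3 at 67.8, EHD2 at 56.3, CAV2 at 44.0, PACSIN2 at 33.7 and CAVIN2 at 26.6, which was rank 1854. CAVIN1 stood above CAV1 per kilobase in SC 0.77 cP samples (347 ± 8.63 against 281 ± 6.01, SD, n = 3) and at 8 cP (354 ± 5.23 against 292 ± 6.37). In shTRPV4 cells these neighbours did not differ beyond their spread (303 ± 14.0 against 308 ± 31.3). CAVIN3 was above EHD2 in SC 0.77 cP samples (83.6 ± 7.41 against 59.8 ± 1.75) and at 8 cP (68.9 ± 1.58 against 56.9 ± 3.54), whereas in shTRPV4 cells it was at 51.0 ± 1.05 against 52.3 ± 0.769, within the spread. CAV2 at 46.0 ± 5.57 was within the spread of both in shTRPV4 cells only, and the order PACSIN2 over CAVIN2 held in every group, at 32.6 ± 0.398 against 27.5 ± 1.48, 34.5 ± 0.773 against 30.9 ± 0.138, and 34.0 ± 1.11 against 21.6 ± 1.62. The order depends on the length used: per kilobase of the MANE Select transcript, CAV1 was first at 463, CAVIN1 stayed at 335, CAVIN3 was at 103 and CAV2 at 98.1. On that scale CAV1 was above CAVIN1 in shTRPV4 cells (485 ± 49.3 against 303 ± 14.0). In the same cells CAV2 was at 102.5 ± 12.4, CAVIN3 at 77.3 ± 1.59 and EHD2 at 57.3 ± 0.843. The near-equal levels described above for shTRPV4 cells thus hold per kilobase of exon only. In bulk RNA, fewer cells with a transcript and less of it per cell cannot be told apart.

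**Figure D1:**
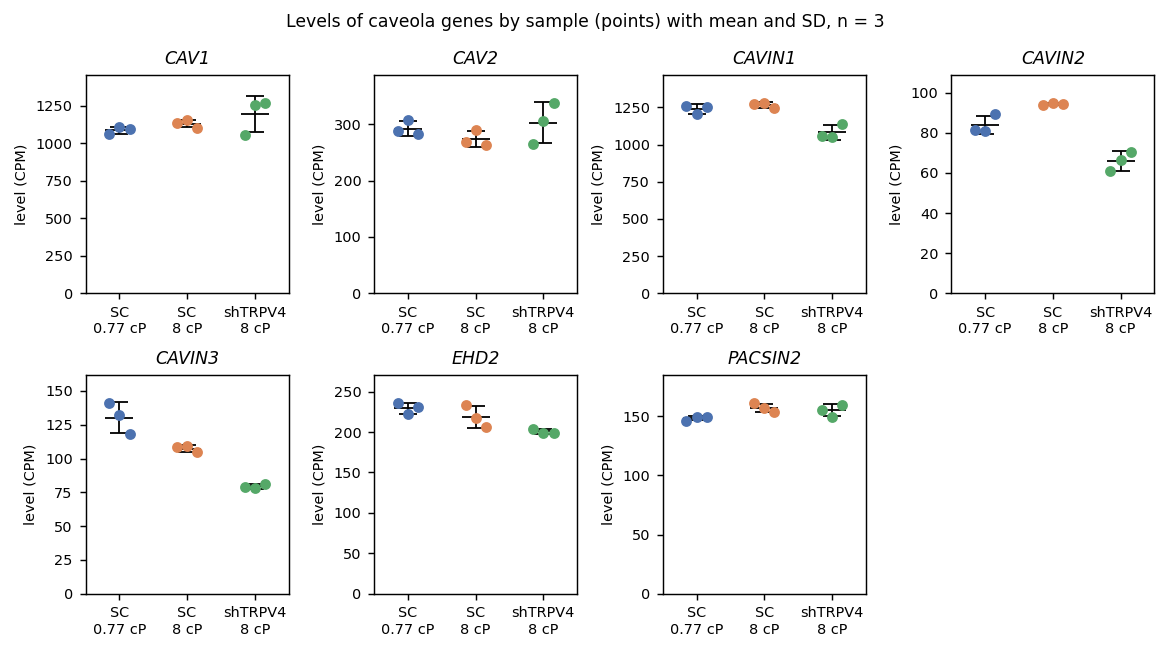
Level in CPM (linear axis from 0) of each caveola gene in SC 0.77 cP samples, SC 8 cP samples and shTRPV4 samples; points are the 3 samples of a group, and bars give the mean and SD. The shTRPV4 samples of CAVIN1, CAVIN2 and CAVIN3 sit below all SC samples, while those of CAV1 and CAV2 reach the highest values but spread widely.

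CAV1, the main structural caveolin, passed the test in none of the 3 comparisons when genes with low counts were filtered out. It was at 1061, 1104 and 1097 CPM in SC 0.77 cP samples and at 1134, 1152 and 1103 CPM in SC 8 cP samples. In shTRPV4 cells it was at 1052, 1257 and 1267 CPM, with replicate 1 below and replicates 2 and 3 above every SC sample. All groups therefore overlapped. The log2 fold change was 0.06 (95% interval -0.07 to 0.18) for viscosity in SC cells, 0.08 (-0.05 to 0.21) for shTRPV4 against SC at 8 cP, and 0.13 (0.00 to 0.26) for shTRPV4 at 8 cP against SC at 0.77 cP. The adjusted p-values were 0.566, 0.415 and 0.0912 in the edgeR quasi-likelihood test. Leaving out 1 library changed the last 2 outcomes: without shTRPV4 replicate 1, CAV1 passed the test at 0.16 against SC at 8 cP (adjusted p = 0.0187) and at 0.22 against SC at 0.77 cP (adjusted p = 0.000875). With all samples and no filter on low counts, CAV1 passed at 0.13 against SC at 0.77 cP (adjusted p = 0.0267).

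CAV2, the partner that forms hetero-oligomers with CAV1 and needs it to leave the Golgi, is encoded beside it on chromosome 7. It was at 287, 308 and 282 CPM in SC 0.77 cP samples, 269, 290 and 263 CPM in SC 8 cP samples, and 264, 306 and 337 CPM in shTRPV4 cells. The samples of the groups interleaved, and as for CAV1 shTRPV4 replicate 1 was the lowest of its group. The differences were -0.09 (95% interval -0.24 to 0.06) for viscosity and 0.14 (-0.01 to 0.29) for knockdown at 8 cP. For shTRPV4 at 8 cP against SC at 0.77 cP the difference was 0.05 (-0.10 to 0.20). The adjusted p-values were 0.387, 0.174 and 0.606 in the edgeR quasi-likelihood test. Without shTRPV4 replicate 1 the knockdown difference at 8 cP was 0.23 and passed (adjusted p = 0.00881). Without shTRPV4 replicate 3 the difference from SC at 0.77 cP was -0.03. There were 0.269 ± 0.0108 CAV2 reads per CAV1 read in SC 0.77 cP samples, 0.242 ± 0.00820 at 8 cP and 0.254 ± 0.0115 in shTRPV4 cells (SD, n = 3).

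CAVIN1, without which caveolae do not form, is the core subunit of the cavin coat. It was at 1260, 1204 and 1254 CPM in SC 0.77 cP samples and at 1272, 1279 and 1244 CPM in SC 8 cP samples, which overlapped. In shTRPV4 cells it was at 1058, 1051 and 1141 CPM, below every SC sample. The change with viscosity was 0.03 (95% interval -0.07 to 0.13, adjusted p = 0.696). In shTRPV4 cells CAVIN1 fell by 14.4% against SC 8 cP samples (log2 fold change -0.22 ± 0.045 SE, adjusted p = 0.00280). Against SC 0.77 cP samples it fell by 12.6% (-0.19 ± 0.045, adjusted p = 0.00280). Any 2 of the 3 comparisons share the samples of a group, so they are not independent of each other.

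CAVIN2, also known as SDPR, binds phosphatidylserine and shapes the curvature of the pit. It was at 81.6, 81.0 and 89.1 CPM in SC 0.77 cP samples and at 94.0, 94.7 and 94.0 CPM in SC 8 cP samples, with no overlap. In shTRPV4 cells it was at 60.7, 66.3 and 70.6 CPM, the lowest of the 3 groups in every sample. CAVIN2 rose with viscosity by 0.17 ± 0.055 (SE, log2 fold change, adjusted p = 0.0449, edgeR quasi-likelihood test), or 12.3%. With knockdown it fell by 30.1% against SC 8 cP samples (-0.52 ± 0.055, adjusted p = 1.16e-05). Against SC 0.77 cP samples it fell by 21.5% (-0.35 ± 0.056, adjusted p = 0.000127).

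The rise of CAVIN2 with viscosity stood close to the threshold of 0.05. It did not pass with upper quartile scaling (0.16, adjusted p = 0.0582). It also failed when 1 library was left out: 0.15 without SC 0.77 cP replicate 1 or without replicate 2 (adjusted p = 0.157 and 0.148), 0.18 and 0.17 without SC 8 cP replicate 1 and replicate 2 (0.0884 and 0.0921), 0.18 without SC 8 cP replicate 3 (0.109) and 0.17 without shTRPV4 replicate 2 (0.0626). The value itself stayed between 0.15 and 0.22 in these fits and the others tried.

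CAVIN3, also known as PRKCDBP, is a cavin that binds protein kinase C delta. It was at 141, 132 and 118 CPM in SC 0.77 cP samples, 108, 109 and 104.5 CPM in SC 8 cP samples, and 78.8, 78.2 and 81.3 CPM in shTRPV4 cells. The 3 groups formed 3 separate steps downward, with no sample out of its place. CAVIN3 fell by 17.6% with viscosity (log2 fold change -0.28 ± 0.056 SE, adjusted p = 0.00375) and fell by 25.9% with knockdown at 8 cP (-0.43 ± 0.056, adjusted p = 7.15e-05). Between shTRPV4 and SC 0.77 cP samples it fell by 39.0% (-0.71 ± 0.056, adjusted p = 1.60e-07). This was the widest difference among the caveola genes, and it passed the test in each of the 14 alternative fits.

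EHD2, an ATPase that rings the caveola neck and holds the pit at the membrane, was at 236, 222 and 231 CPM in SC 0.77 cP samples and at 233, 217 and 206 CPM in SC 8 cP samples. In shTRPV4 cells it was at 204, 199 and 199 CPM, just below the lowest SC sample. The differences were -0.07 ± 0.048 (adjusted p = 0.332) for viscosity and -0.12 ± 0.048 (adjusted p = 0.0871) for knockdown at 8 cP. Only the comparison of shTRPV4 at 8 cP with SC at 0.77 cP passed, in which EHD2 fell by 12.6% (-0.19 ± 0.048, adjusted p = 0.00429). Without SC 8 cP replicate 3, the lowest SC sample, the knockdown difference at 8 cP was -0.16 and passed (adjusted p = 0.0426).

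PACSIN2, an F-BAR protein that bends membrane at the neck and links it to actin regulators, varied least. It was at 146, 149 and 150 CPM in SC 0.77 cP samples, 161, 157 and 154 CPM in SC 8 cP samples, and 155, 150 and 160 CPM in shTRPV4 cells. The SC 8 cP samples were above all SC 0.77 cP samples, and the shTRPV4 samples overlapped the former. No difference passed the test: 0.08 (95% interval -0.01 to 0.17, adjusted p = 0.178) for viscosity and -0.02 (-0.11 to 0.07, adjusted p = 0.778) for knockdown at 8 cP. For shTRPV4 at 8 cP against SC at 0.77 cP the difference was 0.06 (-0.03 to 0.15, adjusted p = 0.250). The sign of the knockdown value at 8 cP is not settled, since it was 0.01 without library scaling.

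**Figure D2:**
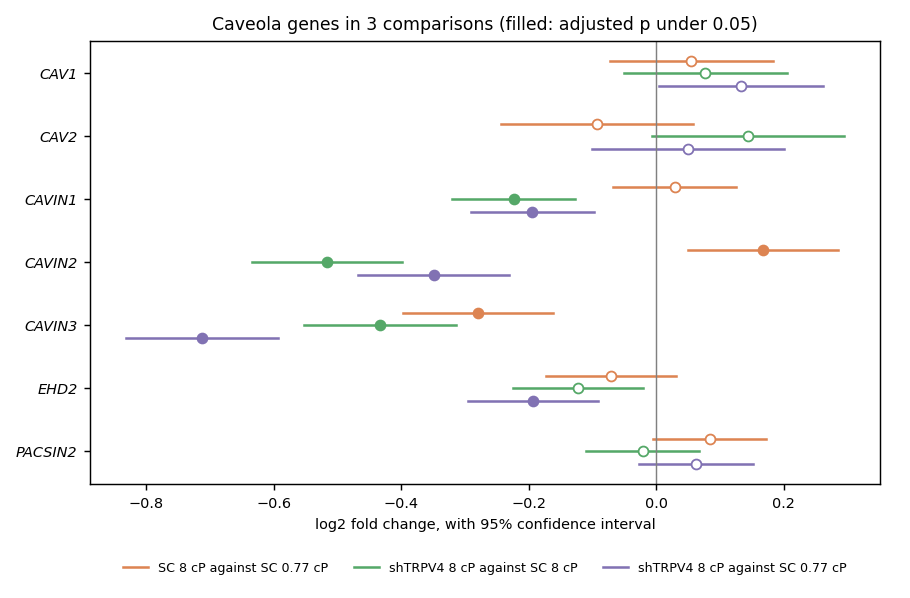
Log2 fold change (points) with its 95% confidence interval (lines) of each caveola gene in 3 comparisons, from the edgeR quasi-likelihood fit of all 9 samples; filled points have an adjusted p under 0.05. CAVIN1, CAVIN2 and CAVIN3 lie left of 0 in both comparisons of shTRPV4 cells, whereas every interval of CAV2 and PACSIN2 spans 0.

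Counted together, 2 of the 7 genes passed the test for viscosity in SC cells, CAVIN2 higher and CAVIN3 lower, where 19.3% of all genes tested passed. For shTRPV4 against SC at the same 8 cP, 3 of 7 passed, all 3 cavins and all lower, where 20.0% of all genes passed and 11.0% passed as lower. For shTRPV4 against SC at 0.77 cP, 4 of 7 passed, the cavins and EHD2, all lower, where 42.4% of all genes passed and 22.0% passed as lower. The samples of the compared groups did not overlap for 3, 4 and 5 of the 7 genes, beside 38.4%, 36.3% and 50.6% of all genes tested. The median log2 fold change of the 7 genes was 0.03, -0.12 and -0.19, and that of all genes tested was -0.01, 0.00 and -0.01. With 7 genes these counts describe the group and were not tested as a set.

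Other features of the libraries also differed between the groups, some with the shTRPV4 label and some between the SC groups. Mitochondrial genes took 3.28% to 3.40% of reads in shTRPV4 cells, against 2.04% to 2.58% and 2.23% to 2.44% in SC 0.77 cP and SC 8 cP samples. The summed level of the 5 mesenchymal markers was 4326 to 4454, 4077 to 4202 and 3544 to 3617 CPM in SC 0.77 cP samples, SC 8 cP samples and shTRPV4 cells. Its members went both ways: in this order of groups the mean of FN1 was 1230, 894 and 752 CPM and that of VIM 1049, 931 and 766 CPM, SNAI2 was at 117, 41.8 and 42.4 CPM, whereas CD44 was at 774, 842 and 882 CPM and AXL at 1217, 1422 and 1148 CPM. The 5 endothelial markers summed to 4.70 to 6.88, 2.84 to 3.50 and 2.57 to 3.13 CPM, most of it PECAM1, and the 3 adipocyte markers to at most 0.244 CPM. The part of these in the cavin differences was not tested.

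Because cavins assemble on caveolins, the ratios of reads within a sample, which need no scaling between libraries, were computed. CAVIN1 reads per CAV1 read were 1.19, 1.09 and 1.14 in SC 0.77 cP samples and 1.12, 1.11 and 1.13 in SC 8 cP samples. In shTRPV4 cells they were 1.01, 0.836 and 0.901, below all 6 SC samples. CAVIN2 reads per CAVIN1 read were 0.0677 ± 0.00319, 0.0745 ± 0.000950 and 0.0608 ± 0.00300 (SD, n = 3), in the order of groups above, with all shTRPV4 samples below all SC samples. CAVIN3 reads per CAVIN1 read were 0.105 ± 0.00966, 0.0848 ± 0.000699 and 0.0734 ± 0.00186, a step down at each group. CAVIN2 and CAVIN3, which moved in opposite directions with viscosity, gave 0.650 ± 0.0935, 0.879 ± 0.0183 and 0.829 ± 0.0518 CAVIN2 reads per CAVIN3 read. EHD2 reads per CAV1 read were 0.211 ± 0.0104, 0.194 ± 0.0105 and 0.170 ± 0.0209. With 3 samples against 3, an exact two-sided permutation test cannot go below p = 0.1, so the ratios are given without one.

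**Figure D3:**
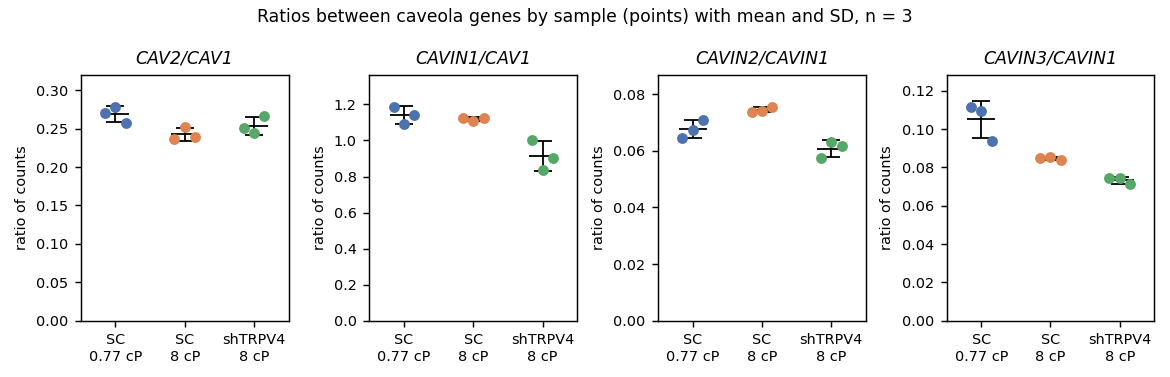
Ratios of read counts between caveola genes (linear axes from 0) in SC 0.77 cP samples, SC 8 cP samples and shTRPV4 samples, with points for the 3 samples of a group and bars for the mean and SD. CAVIN1 per CAV1 is lower in all shTRPV4 samples than in all SC samples, and CAVIN3 per CAVIN1 steps down from group to group.

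Relatives and partners of the caveola proteins were taken as a list of 12 genes, of which 11 were tested and PLVAP, a diaphragm protein of endothelial caveolae, was at 0.0156 CPM or less. The muscle forms CAV3 and CAVIN4 were at 0.299 and 1.39 CPM in SC 0.77 cP samples, far below their relatives, and passed in no comparison. With viscosity 2 of 11 were higher and none lower: ROR1, a receptor known to scaffold CAV1 and CAVIN1, by 0.35 ± 0.066 (SE, adjusted p = 0.00290) and EHD4 by 0.20 ± 0.062 (adjusted p = 0.0348), while DNM2, the fission GTPase dynamin 2, was at -0.12 (adjusted p = 0.0646). With knockdown at 8 cP ROR1 was again higher, by 0.20 ± 0.065 (adjusted p = 0.0446), and DNM2 was lower, at -0.15 ± 0.042 (adjusted p = 0.0219), with EHD1 at -0.12 (adjusted p = 0.113). In shTRPV4 cells against SC 0.77 cP samples, 2 were higher and 2 lower, among them ROR1 at 0.54 (adjusted p = 1.11e-05), EHD4 at 0.31 (adjusted p = 0.000939) and DNM2 at -0.27 (adjusted p = 0.000132). ROR1 was thus higher in shTRPV4 cells where the cavins were lower, and went from 57.5 ± 4.21 CPM in SC 0.77 cP samples through 73.1 ± 5.06 to 83.8 ± 5.97 CPM. The list medians were 0.01 for viscosity, -0.04 for knockdown at 8 cP and -0.02 for shTRPV4 against SC at 0.77 cP, and those of the other lists are given in this order. The counts of each list stand beside the 19.3%, 20.0% and 42.4% of all genes tested that passed in these comparisons.

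Kinases and phosphatases that act on caveolins numbered 8, all tested. With viscosity 1 was higher and 1 lower: ABL2, a kinase of the Abl family, fell by 0.36 on the log2 scale (adjusted p = 0.000368) and PRKCA, protein kinase C alpha, rose by 0.14 (adjusted p = 0.0449), with the phosphatase PTPN1 at 0.12 (adjusted p = 0.0714). With knockdown at 8 cP 2 were higher and 3 lower, including SRC, the kinase known for phosphorylating CAV1 on tyrosine, at 0.22 (adjusted p = 0.00441), its relative FYN at 0.33 (adjusted p = 0.000411) and the phosphatase PTPN14 at -0.22 (adjusted p = 0.00470). All 8 passed between shTRPV4 at 8 cP and SC at 0.77 cP, 5 higher and 3 lower, where 42.4% of all genes tested passed, led by ABL2 at -0.59 (adjusted p = 4.11e-07), FYN at 0.43 (adjusted p = 1.29e-05) and PRKCA at 0.25 (adjusted p = 0.000401). The list medians were 0.07, 0.08 and 0.19.

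Flotillins and stomatin scaffold other membrane microdomains and are structurally unrelated to caveolins. Of 5 listed genes STOML3 was at 0 in all samples and 4 were tested. FLOT1 fell with viscosity by 0.24 on the log2 scale (adjusted p = 0.0215), while STOM was at 0.11 (adjusted p = 0.358) and STOML1 at -0.10 (adjusted p = 0.282). With knockdown at 8 cP 3 of 4 were lower: STOM at -0.50 (adjusted p = 0.000470), FLOT2 at -0.20 (adjusted p = 0.00506) and FLOT1 at -0.28 (adjusted p = 0.00826). All 4 were lower in shTRPV4 cells than in SC 0.77 cP samples, with FLOT1 at -0.51 (adjusted p = 2.03e-05), FLOT2 at -0.24 (adjusted p = 0.000614) and STOM at -0.39 (adjusted p = 0.00119). FLOT1 stepped down across the groups as CAVIN3 did, from 513 ± 32.5 through 435 ± 24.2 to 360 ± 33.2 CPM (SD, n = 3). The list medians were -0.07, -0.24 and -0.31.

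The clathrin coat and its AP2 adaptor serve the main other route of endocytosis. With viscosity 1 of 14 was higher, the heavy chain CLTC at 0.22 (adjusted p = 0.00694), with FCHO1 at -0.28 (adjusted p = 0.0719) and EPN1 at 0.10 (adjusted p = 0.128). With knockdown at 8 cP 2 were lower, the light chain CLTB at -0.21 (adjusted p = 0.00735) and the epsin EPN2 at -0.15 (adjusted p = 0.0357), with EPN1 at -0.09 (adjusted p = 0.164). Between shTRPV4 at 8 cP and SC at 0.77 cP 3 were higher and 3 lower, among them EPN2 at -0.19 (adjusted p = 0.00601), PICALM at 0.12 (adjusted p = 0.0263) and FCHO1 at -0.31 (adjusted p = 0.0263). The list medians were 0.04, -0.04 and 0.01.

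Clathrin-independent carriers gave 11 tested genes of 12, with SH3GL2 at 0 in all samples. The endophilin SH3GL1 was the 1 gene higher with viscosity, at 0.14 (adjusted p = 0.0213), with SNX9 at -0.07 (adjusted p = 0.290) and ARHGAP26 at 0.08 (adjusted p = 0.322). With knockdown at 8 cP 2 were lower, the small GTPase CDC42 at -0.23 (adjusted p = 0.00464) and SH3GL1 at -0.13 (adjusted p = 0.0283), and SH3GLB1 was at -0.10 (adjusted p = 0.0885). Between shTRPV4 at 8 cP and SC at 0.77 cP CDC42 alone passed, at -0.26 (adjusted p = 0.000658), with SNX9 at -0.09 (adjusted p = 0.0924) and ARF1 at -0.09 (adjusted p = 0.125). The list medians were 0.03, -0.04 and -0.06.

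Of 12 receptors and enzymes known from caveolae, 3 were lower with viscosity and none higher: PDGFRB, a receptor for platelet-derived growth factor, at -0.51 (adjusted p = 0.00553), the adenylyl cyclase ADCY6 at -0.15 (adjusted p = 0.0462) and the insulin-like growth factor receptor IGF1R at -0.19 (adjusted p = 0.0483). With knockdown at 8 cP 2 were higher and 4 lower, led by the VEGF receptor KDR at -0.89 (adjusted p = 0.000317), the G protein subunit GNAI2 at -0.31 (adjusted p = 0.000476) and TGFBR2, a receptor for TGF-β, at -0.23 (adjusted p = 0.00131). KDR was low throughout, at 3.51 ± 0.292 CPM in SC 0.77 cP, 3.92 ± 0.131 CPM in SC 8 cP and 2.11 ± 0.459 CPM in shTRPV4 samples. Between shTRPV4 at 8 cP and SC at 0.77 cP 3 were higher and 6 lower, with GNAI2 at -0.40 (adjusted p = 1.40e-05), IGF1R at -0.47 (adjusted p = 2.96e-05) and SCARB1, a lipoprotein receptor, at 0.53 (adjusted p = 9.05e-05). The list medians were -0.05, -0.04 and -0.19.

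**Figure D4:**
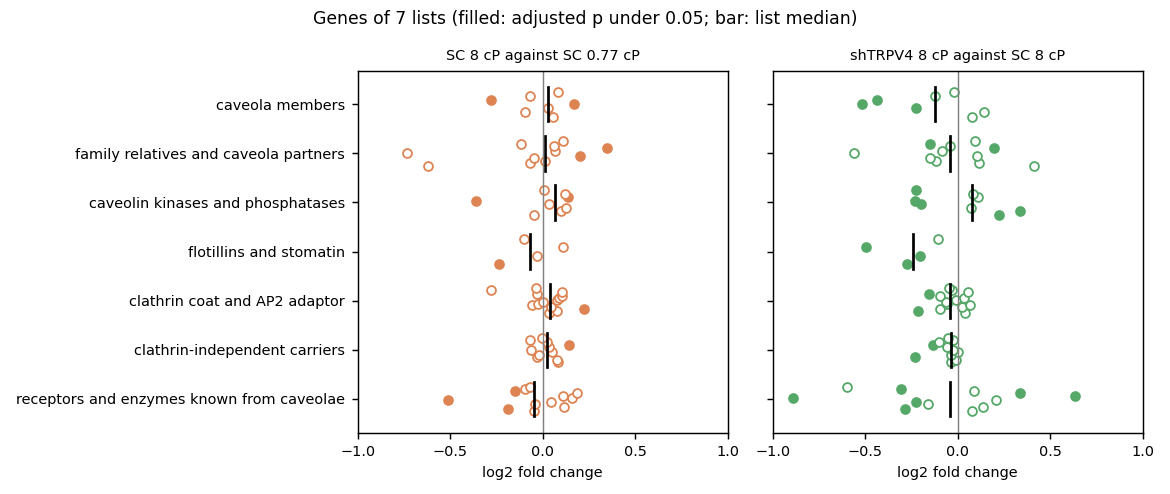
Log2 fold change of each tested gene of 7 lists for viscosity in SC cells (left) and for knockdown at 8 cP (right); filled points have an adjusted p under 0.05 and black bars are list medians. At knockdown the filled points of the caveola genes, the flotillins and stomatin, the clathrin genes and the clathrin-independent carriers lie below 0. They are 3 of 7, 3 of 4, 2 of 14 and 2 of 11 genes tested, where 20.0% of all genes passed and 11.0% passed as lower. The medians of these lists are -0.12, -0.24, -0.04 and -0.04. Filled points of the partners, the kinases and phosphatases, and the receptors and enzymes lie on both sides of 0.

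The genes with the most similar profiles were sought among 13587 protein-coding genes, by the root mean square (RMS) difference over the 9 samples of log2 CPM centred on each gene's mean. The nearest to CAVIN3 were DUSP4, a phosphatase of MAP kinases (0.0440), IL17RE (0.0513) and OSBPL5 (0.0545), where CAVIN3 itself varied by an RMS of 0.299. For CAVIN2, which varied by 0.225, they were ZNF484 (0.0617), MRPL3 (0.0699) and NTN4 (0.0713). For CAVIN1 (0.106) they were RUVBL2 (0.0198), SH3BP5L (0.0248) and TAB1 (0.0261). CAV1 (0.0908) was nearest to CFAP68 (0.0353), NOP10 (0.0355) and ATP5MC3 (0.0363), and CAV2 (0.112) to TOM1L1 (0.0289), DRAM1 (0.0437) and KCTD6 (0.0441). EHD2 (0.0928) was nearest to TECPR1 (0.0220), ADD1 (0.0223) and the epsin EPN2 (0.0282) of the clathrin list. PACSIN2, which varied by only 0.0453, was nearest to UBE2K (0.0161), CANT1 (0.0215) and DTD1 (0.0218). No caveola gene was among the 3 nearest genes of another, and CAV1 and CAV2, neighbours on chromosome 7, were not each other's nearest. A gene that varies little has many close profiles, so these distances describe the 9 samples and nothing more.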

How the data were processed

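RNA of 9 samples of MDA-MB-231 cells, 3 per group as the titles give them, was measured by stranded poly(A) sequencing of paired 100-base reads. As described by the authors, reads were aligned to GRCh38.p13 with HISAT2 2.2.1 and summed over Ensembl 104 genes with HTSeq 0.13.5, and the deposited values are raw counts. SAMtools 1.1.3 and DESeq are also named in the submitters' processing notes. The labels do not say what separates replicates, so p-values measure only the spread between these samples, which may be technical. Each caveola gene had at least 5189 reads in every sample, while TRPV4 had at most 64. Among the caveola genes the standard error did not follow the number of reads. For viscosity it was 0.060 for CAV1 and 0.042 for PACSIN2, which had fewer reads.

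Counts were tested in R 4.3.3 with edgeR 4.0.16 (TMM scaling, filterByExpr, quasi-likelihood test, 1 coefficient per group, all 9 samples), with Benjamini-Hochberg adjustment over 18264 genes and a threshold of 0.05. Fold changes are log2, with the standard error from the F statistic and a 95% interval. CPM used scaled library sizes. Symbols were matched for 60463 of 60664 genes. Levels per kilobase used GENCODE 44 exon lengths. Alternatives were DESeq2 1.42.0, upper quartile scaling, no filter, 6-sample fits, a replicate block and leaving out each sample, and a MANE Select length was added after seeing the data. The fits were tested on simulated counts with a single spread for all genes and with changes larger than most of those of the caveola genes. That test therefore does not cover changes as small as these.

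The members and lists were chosen with earlier results of these data known. Named were all members, TRPV4, the 3 genes of each list with the smallest adjusted p per comparison, list genes not tested, and the 3 nearest profiles per member. Other genes named (the muscle forms CAV3 and CAVIN4, and markers) were chosen after their values were seen or as label checks. A list of leukocyte markers is not reported here.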

Additional observations from a re-analysis of the deposited data

How the results depend on the processing

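Of the 21 fold changes of caveola genes, 14 kept their direction and their side of the threshold in each of 14 alternatives, and 279 of 294 values did so in all. For CAVIN2 with viscosity the value was 0.16 under upper quartile scaling, which did not pass and left 1 of 7 genes called, and between 0.15 and 0.22 when 1 sample was left out. Without the filter on low counts CAV2 passed at 0.14 in shTRPV4 against SC at 8 cP and CAV1 at 0.13 against SC at 0.77 cP. With viscosity, leaving out 1 sample gave -0.111 to -0.0215 for EHD2 (the latter without SC 8 cP replicate 3), -0.126 to -0.0479 for CAV2 and 0.0163 to 0.0495 for CAVIN1, and none of these passed. When 1 sample was left out, between 1 and 2 genes were called for viscosity and between 3 and 5 for knockdown at 8 cP. At 8 cP, knockdown values ranged in these fits from 0.0310 to 0.159 for CAV1, from 0.0583 to 0.232 for CAV2 and from -0.164 to -0.0748 for EHD2, and PACSIN2 from -0.0441 to 0.00238, changing sign without shTRPV4 replicate 2. In the same fits, values of shTRPV4 at 8 cP against SC at 0.77 cP ranged from 0.0874 to 0.215 for CAV1. Those for CAV2 ranged from -0.0339 to 0.140, changing sign without shTRPV4 replicate 3. Over all genes, calls ranged from 1409 to 4349 for viscosity (3518 with all samples) and from 2179 to 3836 for knockdown at 8 cP (3649 with all samples). The lowest counts came without SC 0.77 cP replicate 1, SC 8 cP replicate 3 (1418) and SC 0.77 cP replicate 2 (1927) for viscosity, and without SC 8 cP replicates 2 and 1 (2361) for knockdown. Beyond the fewer samples, the cause was not tested.

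With the replicate number as a block (replicate block) CAVIN2 rose with viscosity by 0.17 (adjusted p = 0.0296), and no call of a caveola gene changed. Deviations of samples with the same number correlated by -0.05 to 0.09, and those of samples with different numbers by -0.106 to 0.115. With 3 samples per group, these correlations cannot decide whether the numbers pair the samples. With the block, calls over all genes were 3475, 3607 and 7731. Depth did not limit the caveola genes, each with at least 5189 reads per sample, whereas TRPV4 had as few as 1.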
